A study of Homo sapiens with 9 samples.

Results

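Cisplatin-resistant OVCAR4 cells were compared with the naive cells they were derived from, and the comparison asks which genes accompany acquired resistance to platinum. OVCAR4 is an established human line grown from a high-grade serous carcinoma of the ovary. The naive cells had no history of cisplatin selection, whereas the resistant cells, called Pt-resistant, came out of continued exposure to cisplatin according to the study's methods. By the study's methods, cells received either DMSO, a solvent, or an inhibitor used elsewhere in the series. Those methods do not single out the naive cells. The labels name no introduced gene or deletion in either state. Each state had 3 libraries, so that 6 of the 9 libraries of the series were compared. The other 3, Pt-resistant cells given 5 uM EPZ015666 for 5 days, were not compared. They entered the low-count filter, the scaling and the shared estimate of the spread. The members are the genes that passed a filter on low counts, 14630 of the 61487 in the table, and they held 99.88% of all counts. Replicates were wells of a culture, so p-values reflect well-to-well spread that may be technical. Whether the resistant cells were a clone or a mixed population is not given. RNA was read in bulk, where fewer cells of a kind and less RNA per cell cannot be told apart.

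Cisplatin enters cells in part through copper transporters and volume-regulated LRRC8 channels, crosslinks DNA, and is bound by glutathione and other thiols. Cells that survive it for long often change their redox enzymes, their transporters and the balance between epithelial and mesenchymal genes, which is set by repressors such as ZEB1 and by growth factor and WNT signals. Ovarian serous carcinoma keeps markers of the Müllerian epithelium, among them PAX8, SOX17 and the folate receptor FOLR1.

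Total counts ran from 14320929 to 16967143 in naive and from 16511205 to 19114811 in Pt-resistant libraries. Levels are given in CPM, counts scaled to a common library total with TMM factors, and they compare a gene with itself, not with other genes. The first principal component of the 6 libraries held 82.2% of the variance and set the states apart, with naive libraries at -54.0 to -49.5 and Pt-resistant libraries at 51.3 to 52.6. The second held 5.43%, with naive replicate 2 at -21.1 and Pt-resistant replicate 1 at -15.6 on one side and the other 4 libraries at 4.32 to 12.1. Naive replicate 2 also stood at least 1.5 times above both other naive libraries in 31 of 9278 genes with a naive mean of 10 CPM or more, against 0 genes for naive replicate 1 and 1 for naive replicate 3. They include the immediate early and stress genes ATF3 and HBEGF and the genes HEY2, CDKN2B and IL1A, whose values are given below with and without that library.

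Of the 14630 genes, 4357 were higher in Pt-resistant cells (29.8%) and 4294 lower (29.4%), by edgeR's quasi-likelihood test with a Benjamini-Hochberg adjusted p under 0.05. These shares, 59.1% in either direction, are the background against which the gene groups are read. With a fitted change of at least 2-fold, 985 genes were higher (6.73%) and 1335 lower (9.13%), and at least 4-fold, 273 were higher and 446 lower. Of the 8651 genes called, 4162 changed by less than 1.5-fold, and the median change of all genes regardless of direction was 1.31-fold. The median log2 fold change of all genes was 0.01, a middle that TMM scaling sets near 0 by construction. A gene is said to rise or fall only where it passed the test.

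**Figure D1:**
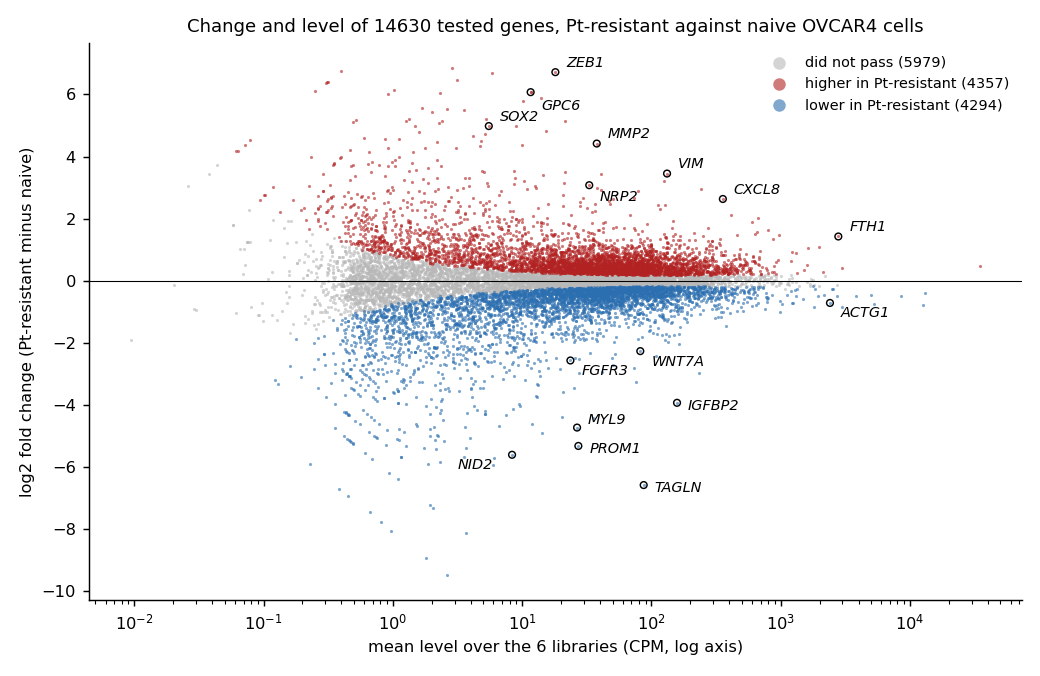
The log2 fold change of each of the 14630 genes (Pt-resistant minus naive, vertical axis) is plotted against its mean level over the 6 libraries in CPM on a log axis, with 1 point per gene. Genes that rose (4357) are red, those that fell (4294) are blue and the others grey, and the named genes include ZEB1 at 6.72 and TAGLN at -6.58.

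Among genes read at 5 CPM or more in the higher state and not overlapping between states, the largest rises included genes of cell identity, the surface and the junctions. Melanophilin, MLPH, which links melanosomes and other vesicles to myosin, stood at 0.114, 0.137 and 0.0630 CPM in naive and 4.63, 6.23 and 4.47 CPM in Pt-resistant libraries. The synaptic adhesion gene NLGN1 stood at 0.170, 0.0687 and 0.189 CPM in naive and 7.51, 6.07 and 7.17 CPM in Pt-resistant libraries, and neither gene overlapped between the states. Fitted rises were 45.9-fold for MLPH and 45.2-fold for NLGN1 (adjusted p of 1.18e-11 and 3.65e-13). SOX2, a transcription factor of stem and progenitor cells, stood at 0.455, 0.206 and 0.315 CPM in naive and 9.38, 12.2 and 10.5 CPM in Pt-resistant libraries, every resistant library being far above every naive one (log2 fold change 4.98 ± 0.24 (SE), adjusted p = 2.74e-14). STEAP1 and STEAP2, neighbours of a family of metalloreductases, rose 28.4-fold and 31.6-fold, from 1.04 to 29.7 CPM and from 0.547 to 17.3 CPM. HAGLR, an antisense transcript of the HOXD cluster, went from 0.266 to 10.3 CPM, and since the strand column counted is not given, its reads cannot be told apart from those of genes on the other strand.

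The largest falls included the stem cell surface marker prominin and the water channel AQP1. PROM1, which encodes prominin 1 (CD133), stood at 56.2, 50 and 53.1 CPM in naive and 1.56, 1.38 and 1.04 CPM in Pt-resistant libraries. AQP1 stood at 22.6, 20.6 and 25 CPM in naive and 1.38, 0.586 and 0.831 CPM in Pt-resistant libraries, and both genes were read at a trace in all 3 resistant libraries. The falls came to 40.1-fold and 24.6-fold (log2 fold changes -5.33 ± 0.14 and -4.62 ± 0.19 (SE); adjusted p of 6.41e-19 and 1.61e-15). NREP, which encodes a small protein linked to TGF-beta signalling, fell 25.4-fold to 0.487 CPM. NME8, of axonemes, fell 33.9-fold to 0.218 CPM. Counted as genes read at 5 CPM or more on one side and at most 0.1 CPM on the other, 2 genes were switched on, among them ILDR2, of tricellular junctions, and 2 off, RAMP2, which encodes a partner of calcitonin-family receptors, and RNU6-1. RNU6-1 is a U6 gene with near-identical copies, and its naive level differed by library, at 3.41, 18.5 and 0.126 CPM, so it is uncertain. Without naive replicate 2 these counts were 4 and 1, and with 0.2 CPM as the limit there were 5 genes each way.

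Measured in CPM gained or lost, among genes changed by at least 1.5-fold, the largest rises included iron storage, stress and secreted genes, and the largest falls were of mitochondrial mRNAs, followed by genes that include cytoplasmic actins and the fatty acid synthase gene. FTH1, the ferritin heavy chain, stood at 1619, 1486 and 1442 CPM in naive and 4272, 4209 and 3712 CPM in Pt-resistant libraries, without overlap, and rose 2.68-fold. SPP1, which encodes the secreted phosphoprotein osteopontin, stood at 264, 234 and 293 CPM in naive and 1007, 1149.6 and 1069.9 CPM in Pt-resistant libraries and rose 4.08-fold (adjusted p = 7.65e-14). SQSTM1, the autophagy receptor p62, went from 254 to 946 CPM and HKDC1, a hexokinase, from 327 to 931 CPM. ANXA1, the membrane-binding annexin A1, went from 392 to 1203 CPM. On the other side, MT-ND4 and MT-ND5, of respiratory complex I, and MT-CYB, of complex III, fell 1.73-fold, 1.80-fold and 1.69-fold, MT-ND4 from 15833 to 9177 CPM. The cytoplasmic actins ACTG1 and ACTB fell 1.64-fold and 1.90-fold, and the fatty acid synthase gene FASN fell 2.01-fold, from 1309 to 653 CPM.

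**Figure D2:**
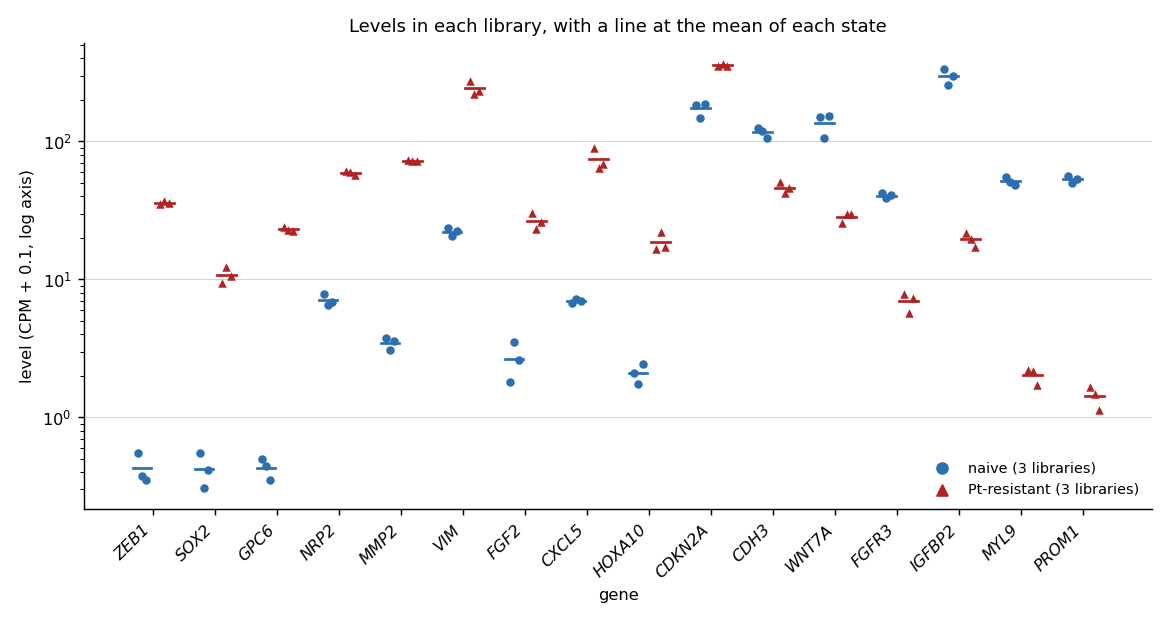
Levels of 16 genes in each of the 6 libraries, in CPM plus 0.1 on a log axis, with naive libraries as circles and Pt-resistant libraries as triangles and a short line at each state's mean. In none of these genes do the states overlap, as in 62.5% of all tested genes, as with SOX2 (0.325 and 10.7 CPM on average) and PROM1 (53.1 and 1.33 CPM).

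Regulators of the epithelial state changed in part, and ZEB1 and TWIST1 in opposite directions. Of 17 tested regulators of the epithelial to mesenchymal transition, 5 rose and 4 fell, beside 29.8% and 29.4% of all genes, with a median log2 fold change of 0.13. ZEB1, a repressor of epithelial genes, stood at 0.455, 0.275 and 0.252 CPM in naive and 35, 36.8 and 35.7 CPM in Pt-resistant libraries. TWIST1, another inducer of the mesenchymal state, stood at 3.01, 5.50 and 4.91 CPM in naive and 0.421, 0.0532 and 0.260 CPM in Pt-resistant libraries, the opposite order, and the states did not overlap for either gene. ZEB1 rose by 6.72 and TWIST1 changed by -4.18 on the log2 scale (adjusted p of 8.03e-19 and 4.18e-09). The epithelial factors did not move together. EHF and GRHL2 fell, to 6.01 and 51.3 CPM (log2 fold changes -1.08 and -0.37), ESRP2, a splicing factor of epithelia, fell from 39.7 to 30.5 CPM, and GRHL3 rose from 1.57 to 3.37 CPM. SNAI1 and OVOL2 did not pass, at -0.13 and 0.13.

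Cadherin and desmosome genes mostly fell, while N-cadherin rose. Of 20 tested, 4 rose and 12 fell (median log2 fold change -0.37). CDH2, which encodes N-cadherin, stood at 11, 11.4 and 11.2 CPM in naive and 68.0, 57 and 59.8 CPM in Pt-resistant libraries. CDH3, which encodes P-cadherin, stood at 126, 119 and 105 CPM in naive and 50.5, 41.8 and 45.8 CPM in Pt-resistant libraries. The N-cadherin gene thus stood higher and the P-cadherin gene lower in every Pt-resistant library, by 5.49-fold and 2.53-fold (adjusted p of 7.24e-16 and 5.88e-12). CDH6, a cadherin of kidney and Müllerian epithelium, fell 2.41-fold, and the adhesion molecule EPCAM fell from 519 to 330.5 CPM. The desmosomal genes DSP, PKP3, DSG2 and JUP fell by smaller steps, with log2 fold changes of -0.51, -0.41, -0.37 and -0.29. CTNNB1, which encodes beta-catenin, changed by -0.38. CTNNA1 and the cell envelope gene PPL did not pass, both at a log2 fold change of 0.10. Among 25 tested tight junction genes, 7 rose and 9 fell. CLDN1 stood at 306, 396 and 302 CPM in naive and 1182, 829 and 937 CPM in Pt-resistant libraries and rose 2.94-fold. CLDN9 fell from 5.25 to 1.03 CPM and CGN, which encodes the junction protein cingulin, from 187 to 79.1 CPM. F11R and TJP1 did not pass (-0.12 and 0.18).

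Intermediate filament and contractile genes were mostly lower. Of 13 tested keratin genes, 3 rose and 8 fell (median -0.60). The paired simple-epithelium keratins KRT8 and KRT18 fell, by log2 fold changes of -0.36 and -0.71, as did KRT19 at -0.60. KRT7 rose by 0.27 and KRT80 by 0.77, and KRT17, of basal and stressed epithelium, fell 2.85-fold to 3.22 CPM. VIM, the filament of mesenchymal cells, stood at 23.4, 20.4 and 22.5 CPM in naive and 272, 221 and 234 CPM in Pt-resistant libraries, and NES, which encodes nestin, at 24.4, 17.4 and 22.4 CPM in naive and 3.73, 2.50 and 4.10 CPM in Pt-resistant libraries. These filament genes, both of which are read in mesenchymal and progenitor cells, thus went opposite ways, 10.9-fold up and 6.23-fold down (adjusted p of 2.23e-18 and 3.00e-12). Among 25 tested contractile and actin-binding genes, 4 rose and 13 fell (median -0.56). The count that rose was 2 without naive replicate 2, naive replicate 3 or Pt-resistant replicate 2. MYL9, the regulatory light chain of smooth muscle and non-muscle myosin, stood at 55.3, 50.7 and 47.9 CPM in naive and 2.10, 2.08 and 1.61 CPM in Pt-resistant libraries. TAGLN, which encodes transgelin, stood at 185, 153 and 179 CPM in naive and 1.26, 2.34 and 1.71 CPM in Pt-resistant libraries, so that each was down to a few CPM in all resistant libraries. LMOD1 fell 11.7-fold, FLNC 9.61-fold and CALD1, which encodes caldesmon, 2.72-fold. MYH9, MYH10, VCL, TPM1, TPM4, ACTN1 and ACTN4 fell, with log2 fold changes from -0.44 to -1.19. CNN3 went the other way, at 0.69, and CNN1 rose from 0.367 to 1.91 CPM. The coactivator gene MRTFB and the smooth muscle actin ACTA2 did not pass (-0.14 and -0.56).

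Matrix genes fell more often than they rose. Of 40 tested genes of collagens, laminins and the basement membrane, 5 rose and 17 fell (median -0.18). Among laminin chains alone, 0 of 11 rose and 6 fell, LAMA1 from 47.5 to 15.2 CPM and LAMA3 from 1205 to 760.4 CPM. NID2, which encodes the linker nidogen 2, stood at 17.2, 15.4 and 16.6 CPM in naive and 0.120, 0.426 and 0.416 CPM in Pt-resistant libraries, and its relative NID1 fell 2.24-fold. HSPG2, the basement membrane proteoglycan perlecan, fell by 0.87 on the log2 scale. The type IV collagen gene COL4A2 did not pass (-0.08). FN1, which encodes fibronectin, stood at 0.511, 1.03 and 0.819 CPM in naive and 5.65, 4.42 and 3.90 CPM in Pt-resistant libraries, and TNC, which encodes tenascin C, at 70.0, 71.4 and 71.2 CPM in naive and 216, 162 and 189.5 CPM in Pt-resistant libraries. Both rose without overlap, 5.95-fold and 2.67-fold, and COL5A1 rose 2.31-fold. In contrast, COL8A1 fell 8.42-fold and the fibrillin gene FBN2 6.0-fold.

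Matrix remodelling and matrix receptors were mixed. Of 22 tested genes of metalloproteinases, plasminogen activation and their inhibitors, 8 rose and 9 fell. MMP2, a gelatinase, stood at 3.64, 2.96 and 3.46 CPM in naive and 73.3, 71.8 and 71.4 CPM in Pt-resistant libraries (log2 fold change 4.42 ± 0.11 (SE), adjusted p = 1.48e-19). SERPINE2, an inhibitor of plasminogen activators and other serine proteases, rose 9.85-fold, to 15.9 CPM. PLAU, the urokinase gene, and PLAUR, its receptor, fell, with log2 fold changes of -0.43 and -0.68. ADAMTS15 fell 5.75-fold, the metalloproteinase inhibitor TIMP3 2.80-fold and MMP15 3.26-fold, whereas MMP14, which activates MMP2, rose 1.71-fold. Of 18 integrin subunits, 6 rose and 7 fell. ITGB2, the beta subunit of leukocyte integrins, stood at 21.0, 16.7 and 16.8 CPM in naive and 70.3, 65.2 and 63.1 CPM in Pt-resistant libraries, and ITGA1, a collagen receptor subunit, rose 2.52-fold. ITGB7, ITGA6, ITGA2 and ITGB6 fell, with log2 fold changes of -1.75, -0.85, -0.80 and -0.75, while ITGA5 and ITGB4 rose by 0.58 and 0.75. Among 11 proteoglycan genes, 7 rose and 3 fell. GPC6, which encodes the glypican 6 coreceptor, stood at 0.398, 0.344 and 0.252 CPM in naive and 23.9, 22.7 and 22.2 CPM in Pt-resistant libraries, and SDC1, which encodes the epithelial syndecan 1, at 129.6, 109.8 and 128 CPM in naive and 35, 33.4 and 32.5 CPM in Pt-resistant libraries. The syndecan thus fell 3.65-fold in all resistant libraries, and GPC4, SDC3 and VCAN rose by 0.81, 0.77 and 0.64 on the log2 scale.

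**Figure D3:**
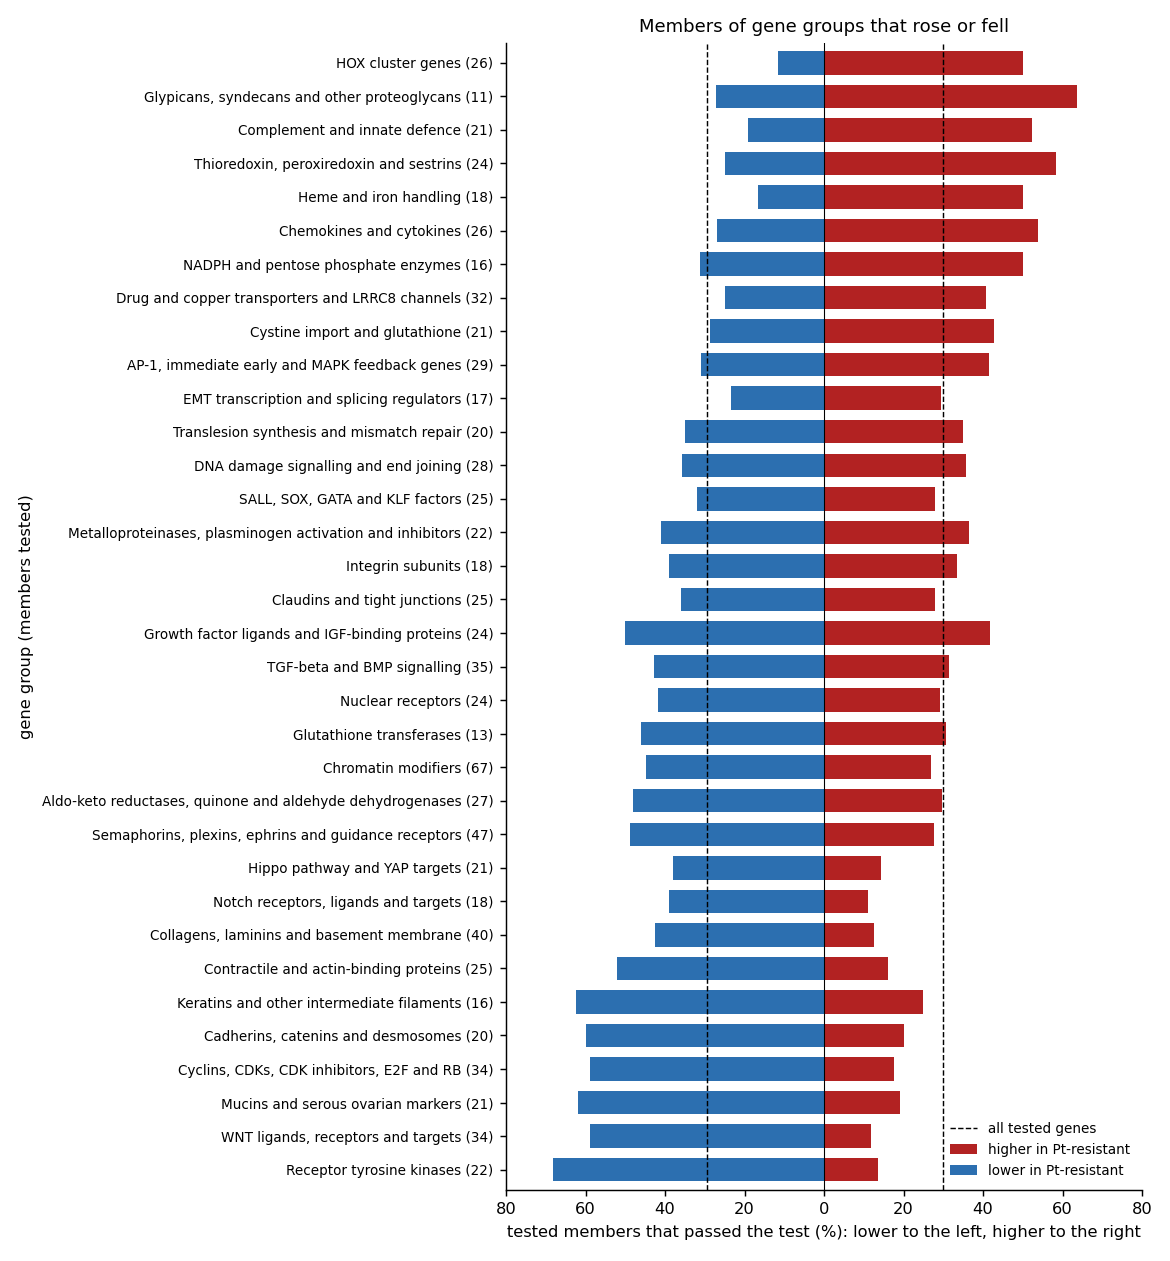
For 34 gene groups, bars show the percentage of tested members that rose (red, to the right) and fell (blue, to the left) in Pt-resistant against naive cells, with the number tested beside each name. Dashed lines mark the background of all tested genes, 29.8% higher and 29.4% lower, and receptor tyrosine kinases stand at 68.2% lower and thioredoxin system genes at 58.3% higher.

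Receptors of growth factors fell in most cases. Of 22 tested receptor tyrosine kinases, 3 rose and 15 fell, beside 29.8% and 29.4% of all genes, with a median log2 fold change of -0.80. FGFR3 stood at 42.3, 38.6 and 40.4 CPM in naive and 7.69, 5.59 and 7.17 CPM in Pt-resistant libraries, and FGFR1 at 69.1, 63.5 and 69.0 CPM in naive and 25.7, 26.3 and 28.8 CPM in Pt-resistant libraries. All 4 fibroblast growth factor receptors fell without overlap, where 62.5% of all tested genes did not overlap in either direction. Falls were 5.94-fold for FGFR3, 2.50-fold for FGFR1, 2.0-fold for FGFR4 and 1.86-fold for FGFR2 (edgeR adjusted p of 2.74e-14, 5.25e-12, 2.34e-09 and 2.54e-09). The collagen receptor DDR1 fell and its relative DDR2 rose, with log2 fold changes of -1.06 and 1.34. The EGF receptor family was lower in ERBB2, ERBB3 and ERBB4 (-0.46, -0.48 and -1.41), and EGFR itself did not pass, at 0.23. Without naive replicate 2 or Pt-resistant replicate 2 EGFR did pass, at 0.35 and 0.29. AXL, the receptor of GAS6, rose from 37.7 to 72.7 CPM, while its relatives MERTK and TYRO3 fell (-0.91 and -0.59) and GAS6 fell by 0.56. MET, the receptor of hepatocyte growth factor, did not pass (0.15).

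Ligands moved in both directions. Of 24 tested growth factor and IGF-binding protein genes, 10 rose and 12 fell. FGF2 stood at 1.70, 3.44 and 2.52 CPM in naive and 30.4, 23.1 and 25.9 CPM in Pt-resistant libraries, all 3 resistant libraries being far above the naive ones, and rose 10.5-fold. AREG, which encodes amphiregulin, a ligand of EGFR, stood at 2.61, 2.27 and 2.02 CPM in naive and 16.3, 10.8 and 13.2 CPM in Pt-resistant libraries and rose 5.78-fold. The further EGFR ligands BTC, EGF and TGFA rose by 1.13, 2.04 and 0.99 on the log2 scale. HBEGF stood at 20.6, 44.9 and 17.4 CPM in naive and 53.1, 40.4 and 42.9 CPM in Pt-resistant libraries, where naive replicate 2 overlapped the resistant libraries, and without it the fold was 2.37, against 1.66 with all libraries. Of the 7 IGF-binding proteins, which hold insulin-like growth factors outside cells, 2 rose and 4 fell. IGFBP2 stood at 335, 256 and 298 CPM in naive and 21.6, 19.4 and 17.2 CPM in Pt-resistant libraries and IGFBP3 at 82.7, 89.1 and 90.3 CPM in naive and 15.2, 12.2 and 12.6 CPM in Pt-resistant libraries. Falls came to 15.3-fold and 6.57-fold (adjusted p of 1.15e-18 and 1.13e-16), and PDGFD, PDGFA and PDGFB fell, with log2 fold changes of -1.91, -0.92 and -0.94.

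WNT signalling genes were mostly lower, from ligands to receptors. Of 34 tested, 4 rose and 20 fell, with a median log2 fold change of -0.50. Falls of at least 2-fold numbered 13, against 9.13% of all genes. WNT7A, a ligand expressed in the Müllerian duct, stood at 150.0, 106 and 152 CPM in naive and 25.4, 29.5 and 29.6 CPM in Pt-resistant libraries. Every resistant library was far below every naive one (log2 fold change -2.27 ± 0.11 (SE), adjusted p = 4.74e-14). WNT5A and WNT7B fell by smaller steps (-0.46 and -0.53), and WNT9A rose from 1.14 to 3.35 CPM. Among Frizzled receptors and the coreceptors LRP5 and LRP6, 1 of 11 rose and 8 fell. FZD4, FZD2, FZD8 and FZD5 fell 4.38-fold, 2.99-fold, 2.43-fold and 2.23-fold, and FZD6 rose by 0.57 on the log2 scale. LGR4, a receptor of R-spondins, stood at 250, 221 and 281 CPM in naive and 86.4, 125 and 115 CPM in Pt-resistant libraries and fell 2.30-fold. The transcription factors TCF7 and TCF7L1 fell, by -2.70 and -1.67. Among inhibitors, SFRP1 fell 7.39-fold and NKD1 8.0-fold, while DKK3 and NOTUM rose by 0.67 and 0.76. The targets AXIN2 and RNF43, both at low levels, did not pass (-0.24 and -0.23).

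Notch genes mostly fell where they changed, and the BMP ligands split. Of 18 tested Notch genes, 2 rose (1 without naive replicate 3 or Pt-resistant replicate 2) and 7 fell. These are 11.1% and 38.9%, against 29.8% and 29.4% of all genes. The other 9 did not pass, and the median log2 fold change was -0.09. NOTCH3 stood at 50.6, 42.1 and 42.8 CPM in naive and 13.6, 13.4 and 14.3 CPM in Pt-resistant libraries and its ligand JAG2 at 41.9, 30 and 40.7 CPM in naive and 13.6, 13.1 and 13.9 CPM in Pt-resistant libraries, both lower in every resistant library (3.28-fold and 2.78-fold). HEY2, a Notch target, stood at 108, 176 and 103 CPM in naive and 21.0, 17.9 and 16.8 CPM in Pt-resistant libraries, and its fall of 6.98-fold was 5.75-fold without naive replicate 2. HES1, another target, rose 2.28-fold. RBPJ, the DNA-binding partner of Notch, did not pass (-0.07). Of 35 TGF-beta and BMP genes, 11 rose and 15 fell. FST, which encodes follistatin, a binder of activins, stood at 0.511, 1.24 and 0.756 CPM in naive and 8.36, 10.3 and 9.40 CPM in Pt-resistant libraries and rose 11.4-fold. BMP2 and BMP6 rose 4.0-fold and 2.16-fold while BMP7 and BMP4 fell 2.58-fold and 2.41-fold, BMP7 from 206 to 79.6 CPM. The receptors BMPR1B and TGFBR2 fell (-2.40 and -0.42), and ID4 and ID1, BMP-responsive genes, fell, with log2 fold changes of -0.83 and -0.36. Among 21 genes of the Hippo pathway and targets of YAP, 3 rose and 8 fell, with 0 beyond 2-fold in either direction. YAP1 and TEAD2 fell, with log2 fold changes of -0.47 and -0.74, as did the target AMOTL2, at -0.54.

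Semaphorins mostly fell, and the neuropilin receptors rose. Of 47 tested guidance genes, 13 rose and 23 fell, and among semaphorins alone 2 of 15 rose and 10 fell (median -0.83). NRP2, a coreceptor of semaphorins and of vascular endothelial growth factors, stood at 7.78, 6.39 and 6.74 CPM in naive and 60.8, 59.4 and 57.1 CPM in Pt-resistant libraries. SEMA3A, a ligand of neuropilins, stood at 9.60, 12.4 and 9.39 CPM in naive and 57, 47.8 and 53.3 CPM in Pt-resistant libraries. Each resistant library was above each naive one for both, with rises of 8.43-fold and 5.05-fold (adjusted p of 9.17e-17 and 1.56e-14). NRP1, the receptor ROBO1 and its ligand SLIT2 rose as well, 2.0-fold, 2.82-fold and 2.11-fold. PLXND1, a plexin receptor, stood at 249, 253 and 244 CPM in naive and 79.5, 74.3 and 74.1 CPM in Pt-resistant libraries and fell 3.27-fold. SEMA4A, SEMA4D and SEMA3F fell 2.88-fold, 3.11-fold and 2.45-fold, and the Eph receptors EPHB2, EPHA1 and EPHB4 3.04-fold, 2.80-fold and 2.13-fold.

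Genes that respond to MAP kinase signals split. Of 29 tested AP-1, immediate early and MAPK feedback genes, 12 rose and 9 fell. FOSL1, a subunit of AP-1, stood at 4.26, 6.60 and 4.03 CPM in naive and 21.4, 10.5 and 15.5 CPM in Pt-resistant libraries and rose 3.20-fold. FOS and EGR1, induced within minutes of a stimulus, fell, FOS from 87.0 to 42.2 CPM and EGR1 from 149 to 79.6 CPM. The ETS factors ETV5 and ETV4, both read as outputs of MAP kinase signalling, went opposite ways, at 1.44 and -1.84 on the log2 scale. Feedback inhibitors of the Sprouty family fell (SPRY1 -0.87, SPRY4 -0.80 and SPRY2 -0.55), whereas the phosphatase genes DUSP10 and DUSP6 rose (1.70 and 0.62). ATF3 stood at 10.3, 50 and 14.3 CPM in naive and 244, 222 and 212 CPM in Pt-resistant libraries, and its fold of 9.23 became 18.4 without naive replicate 2.

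HOX genes rose more often than they fell. Of 26 tested HOX genes, 13 rose and 3 fell, and in the HOXA cluster 7 of 11 rose and 0 fell (median log2 fold change 1.16). HOXA10 stood at 1.99, 1.65 and 2.33 CPM in naive and 16.5, 22 and 17.1 CPM in Pt-resistant libraries, and HOXA11 at 1.02, 1.10 and 1.26 CPM in naive and 8.66, 6.12 and 6.96 CPM in Pt-resistant libraries. These genes pattern the uterus and cervix in the Müllerian duct, and both were higher in all resistant libraries, by 9.27-fold and 6.38-fold (adjusted p of 4.74e-14 and 4.02e-10). HOXA9, which marks the oviduct in that duct, rose from 0.669 to 2.38 CPM and HOXA7 from 1.27 to 4.56 CPM. In the HOXB cluster, 4 of 9 rose, by up to 2.65-fold in HOXB13, and HOXB3 and HOXB4 fell (-0.28 and -0.50). Among 25 SALL, SOX, GATA and KLF factors, 7 rose and 8 fell. SALL1 stood at 0.0568, 0.137 and 0.126 CPM in naive and 13.2, 10.5 and 11.3 CPM in Pt-resistant libraries, and its relative SALL2 at 10.7, 10.8 and 9.76 CPM in naive and 2.04, 1.06 and 2.08 CPM in Pt-resistant libraries. The paralogs thus changed in opposite directions. KLF4 rose 2.92-fold and KLF8 fell 3.26-fold.

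The label of a serous ovarian line was checked against lineage markers. PAX8, SOX17, MUC16, EPCAM and the keratins KRT7, KRT8 and KRT18 were read in all 6 libraries, with PAX8 at 126, 148 and 128 CPM in naive and 118, 107 and 121 CPM in Pt-resistant libraries and SOX17 at 254, 263 and 244 CPM in naive and 216, 229.6 and 228 CPM in Pt-resistant libraries. WT1 was too low to test, and MSLN averaged 7.95 (naive) and 7.90 CPM (Pt-resistant). Of 21 tested mucin and serous marker genes, 4 rose and 13 fell. FOLR1 stood at 25.6, 19.7 and 22.5 CPM in naive and 3.85, 4.21 and 3.69 CPM in Pt-resistant libraries and ESR1, the oestrogen receptor, at 4.60, 4.33 and 3.97 CPM in naive and 0.421, 0.586 and 0.104 CPM in Pt-resistant libraries, both lower in every resistant library (5.77-fold and 11.5-fold). MEIS1, a partner of HOX proteins, fell 2.18-fold and EMX2 had a log2 fold change of -0.77. SOX17 did not pass (-0.18), and MUC16 averaged 86.8 (naive) and 101.3 CPM (Pt-resistant). Among nuclear receptors, 7 of 24 rose and 10 fell, with RARB at 2 counts in the Pt-resistant libraries, for a naive to resistant ratio of 22.8 (exact interval 5.90 to 194). Of 21 markers of fibroblasts, endothelium and blood cells, 9 could be tested, 2 of which rose and 6 fell. The endothelial genes PECAM1 and CDH5 stood at 95.4 and 48.4 CPM in naive cells and changed by -0.73 and 0.49, and the blood cell marker PTPRC averaged 0.285 (naive) and 0.0374 CPM (Pt-resistant). Over all 21 markers the summed level ran from 149 to 166 CPM in naive and from 129 to 135 CPM in Pt-resistant libraries. Of these markers, 13 stayed under 1 CPM in all 6 libraries, and the blood markers ITGAM and HBB had no count. The part of other cells in the results was not tested. Without naive replicate 3 the count of nuclear receptors that rose was 4, and without naive replicate 2, naive replicate 3 or Pt-resistant replicate 2 that of the 21 markers was 1.

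Chromatin modifiers, like most tested genes, mostly changed by less than 2-fold. Of 67 tested, 18 rose and 30 fell (median -0.13). Changes of at least 2-fold numbered 3 higher and 2 lower, against 6.73% and 9.13% of all genes. SMARCA2, an ATPase of SWI/SNF remodellers, stood at 27.0, 25.2 and 23.2 CPM in naive and 4.81, 5.48 and 4.99 CPM in Pt-resistant libraries, and its paralog SMARCA4 fell by 0.38 on the log2 scale. SMARCA2 thus fell 4.93-fold without overlap (adjusted p = 4.91e-14). TET1, which oxidises methylated cytosine, fell 3.01-fold, and the maintenance methyltransferase gene DNMT1 fell by 0.78 and DNMT3B rose by 0.41 on the log2 scale. EZH2 and EED of Polycomb complex 2 fell, with log2 fold changes of -0.44 and -0.47, and SUZ12 did not pass (0.05). SIRT6, HDAC9 and DOT1L rose by 1.10, 0.94 and 0.85.

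Thiol and peroxide defence genes rose more often than they fell, and glutathione transferases were mixed. Of 24 thioredoxin, peroxiredoxin and sestrin genes, 14 rose and 6 fell (median 0.34). TXNRD1, which encodes cytosolic thioredoxin reductase, stood at 479.7, 532 and 537 CPM in naive and 1572, 1368 and 1342 CPM in Pt-resistant libraries. SRXN1, which restores overoxidised peroxiredoxins, stood at 2.78, 2.20 and 1.76 CPM in naive and 8.42, 9.74 and 7.32 CPM in Pt-resistant libraries and rose 3.74-fold. SOD2, the mitochondrial superoxide dismutase, and MSRB3, a methionine sulphoxide reductase, rose 2.44-fold and 2.91-fold. TXNIP, the inhibitor of thioredoxin, and PRDX2 fell, with log2 fold changes of -0.80 and -0.61. In the glutathione list, 9 of 21 rose and 6 fell, and GPX4, which reduces lipid peroxides, rose from 229 to 369 CPM, while GGT7 fell 2.01-fold. Among glutathione transferases, which join glutathione to reactive compounds, 4 of 13 rose and 6 fell. GSTP1 stood at 2431, 2204 and 2288 CPM in naive and 1270.0, 1386 and 1196 CPM in Pt-resistant libraries and fell 1.80-fold, GSTM4 fell 4.49-fold, and GSTA4 and MGST1 rose by 1.10 and 0.81. Members of this family and of the aldo-keto reductases share sequence, so their counts are uncertain.

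Aldehyde and quinone enzymes, NADPH sources and iron genes were mixed. Of 27 aldo-keto reductase, quinone and aldehyde dehydrogenase genes, 8 rose and 13 fell. AKR1C1 rose from 0.587 to 4.75 CPM and NQO1 from 172 to 417 CPM. ALDH7A1 fell 2.65-fold, ALDH1A3 4.06-fold and ALDH2 1.51-fold, and ALDH3B1 rose 2.21-fold. Among 16 NADPH enzymes, 8 rose and 5 fell. ME1, the cytosolic malic enzyme, rose from 60.5 to 137 CPM and IDH2 fell from 147 to 48.5 CPM, while PGD of the oxidative pentose phosphate pathway did not pass (0.14). Of 18 heme and iron genes, 9 rose and 3 fell, with FTL at 0.41 beside FTH1 at 1.42. The transferrin receptor gene TFRC averaged 855 (naive) and 837 CPM (Pt-resistant).

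Transporters with a role in drug and copper movement rose more often than they fell as a list, but ABC transporters alone did not. Of 32 tested, 13 rose and 8 fell, beside 29.8% and 29.4% of all genes. By at least 2-fold, 7 rose and 2 fell, against 6.73% and 9.13% of all genes. Among ABC transporters, 7 of 20 rose and 7 fell. Copper transporters and chaperones rose in 3 of 6 and fell in 1, and LRRC8 subunits rose in 2 of 5 and fell in 0. ABCC3, an exporter of conjugated compounds, stood at 4.26, 4.61 and 4.22 CPM in naive and 22.9, 22.1 and 21.7 CPM in Pt-resistant libraries and rose 5.10-fold. The lipid exporters ABCG1 and ABCA1 rose 4.95-fold and 3.6-fold. ABCC1 did not pass (-0.05), and ABCC4 fell by 0.42 on the log2 scale. Among copper genes, the importer SLC31A1, also known as CTR1, stood at 59.1, 63.2 and 58.6 CPM in naive and 102, 109 and 98.6 CPM in Pt-resistant libraries and was higher in each resistant library (1.71-fold). The exporter ATP7A rose and its paralog ATP7B fell, at 0.62 and -0.82 on the log2 scale. LRRC8A, the essential subunit of volume-regulated anion channels, stood at 67.9, 65.0 and 67.1 CPM in naive and 139.8, 120.0 and 126 CPM in Pt-resistant libraries and rose 1.93-fold, LRRC8C rose 2.73-fold, and LRRC8B did not pass (-0.08).

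Genes of damage signalling and translesion synthesis, like most tested genes, mostly moved by less than 2-fold. Of all genes, 6.73% were higher and 9.13% lower by at least 2-fold. Of 20 translesion and mismatch repair genes, 7 rose and 7 fell, none beyond 2-fold, with the bypass polymerases POLK, POLH and REV1 higher (0.68, 0.43 and 0.35) and MSH6 and RAD18 lower (-0.48 and -0.62). Of 28 damage signalling and end joining genes, 10 rose and 10 fell. CHEK1, the checkpoint kinase below ATR, stood at 102, 100.1 and 109 CPM in naive and 46.4, 49.9 and 52.1 CPM in Pt-resistant libraries and fell 2.10-fold, while ATR itself rose by 0.50 on the log2 scale. SLFN5 rose from 159 to 385 CPM. LIG4 and XRCC6, of end joining, rose by 0.69 and 0.62.

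Cyclins and E2F factors mostly fell, and the INK4 genes CDKN2A and CDKN2B rose. Of 34 cyclin, CDK, CDK inhibitor, E2F and RB genes, 6 rose and 20 fell. Among cyclins 7 of 8 fell, CCNE1 from 128 to 75.3 CPM and CCND1 from 274 to 189 CPM. The exception was CCNA1, a cyclin of germ cells and leukaemias, which stood at 11.1, 13.3 and 11.7 CPM in naive and 42.7, 33.0 and 39.8 CPM in Pt-resistant libraries and rose 3.21-fold. CDKN2A, which encodes p16 and ARF, stood at 184, 148 and 188 CPM in naive and 352, 364 and 352 CPM in Pt-resistant libraries. CDKN2B, its neighbour on chromosome 9, which encodes p15, stood at 34.4, 52.9 and 30.9 CPM in naive and 232, 178 and 176 CPM in Pt-resistant libraries. Both rose without overlap, 2.05-fold and 4.97-fold (adjusted p of 4.98e-10 and 1.32e-12), and without naive replicate 2 the fold of CDKN2B was 5.95. Of the 7 CDK inhibitor genes, 3 rose and 0 fell, and CDKN1B did not pass (0.11). CDKN1A, which encodes p21, rose 1.74-fold. MYBL2, E2F8, FOXM1 and E2F1 fell, with log2 fold changes of -1.23, -1.04, -0.82 and -0.75. The share of counts from mitochondrial mRNAs was 7.12% ± 1.0 in naive and 4.8% ± 0.37 in resistant libraries (SD, n = 3 each, exact two-sided permutation test p = 0.1, the smallest that 3 against 3 allows). Neither its relation to these genes nor its part in the results was tested.

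Genes of secreted immune signals rose more often than they fell, with the CXC chemokines split. Of 26 tested chemokine and cytokine genes, 14 rose and 7 fell, 12 and 4 by at least 2-fold, against 6.73% and 9.13% of all genes (median log2 fold change 0.70). CXCL5 stood at 6.59, 7.15 and 6.87 CPM in naive and 89.3, 64.4 and 68.0 CPM in Pt-resistant libraries. CXCL8, which encodes interleukin 8, stood at 75.6, 128 and 94.4 CPM in naive and 639, 575 and 629 CPM in Pt-resistant libraries. CXCL1, a ligand of the same receptor, CXCR2, stood at 169, 218 and 153 CPM in naive and 94.4, 59.9 and 75.7 CPM in Pt-resistant libraries. CXCL5 and CXCL8 thus rose 10.8-fold and 6.20-fold, and CXCL1 fell 2.35-fold, without overlap in any of them (adjusted p of 1.04e-16, 4.54e-14 and 1.16e-08). Counting all CXC chemokines, 4 of 8 rose and 4 fell. The interleukins were of one direction, 7 of 8 rising and 0 falling. IL1A stood at 9.03, 21.0 and 11.2 CPM in naive and 86.5, 74.0 and 79.5 CPM in Pt-resistant libraries, and its fold of 5.90 was 7.91 without naive replicate 2. IL32, IL15, IL33, IL6 and IL11 rose 3.39-fold, 2.24-fold, 2.19-fold, 2.09-fold and 2.09-fold, the last pair at levels under 3 CPM, and IL1B did not pass (0.44). CCL2, which attracts monocytes, rose from 16.4 to 48.8 CPM, and CX3CL1 and CSF1 fell, with log2 fold changes of -0.66 and -0.56.

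Complement components and their regulators also rose more often than they fell. Of 21 complement and innate defence genes, 11 rose and 4 fell, 8 and 2 by at least 2-fold, against 6.73% and 9.13% of all genes. C3, the central component, stood at 491, 516 and 462 CPM in naive and 1375, 1143 and 1247 CPM in Pt-resistant libraries, and LCN2, which binds bacterial siderophores, at 64.0, 81.2 and 65.3 CPM in naive and 187, 191 and 178 CPM in Pt-resistant libraries. Each was higher in all resistant libraries, by 2.56-fold and 2.65-fold (adjusted p of 5.83e-12 and 1.58e-11). CD55, which protects cells from complement, rose 3.44-fold, from 10.4 to 35.9 CPM, and CD59 rose by 0.41 on the log2 scale. The components C5 and C1S and the protease CFI rose 2.38-fold, 2.50-fold and 2.06-fold, and the elastase inhibitor PI3 and the sensor NOD1 fell 5.51-fold and 2.17-fold.

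**Figure D4:**
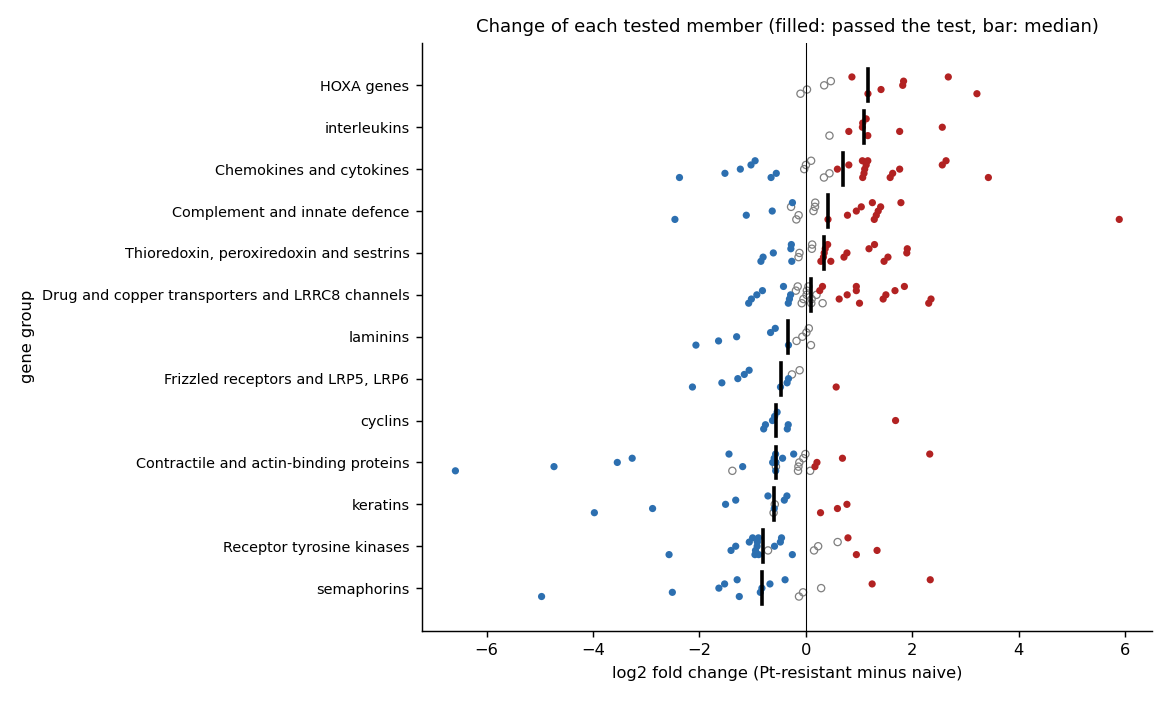
Each point is the log2 fold change (Pt-resistant minus naive, horizontal axis) of a tested member of 13 gene groups, filled where the member passed the test, with a bar at the group's median. Medians run from -0.83 for semaphorins and -0.80 for receptor tyrosine kinases to 1.10 for interleukins and 1.16 for HOXA genes.

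Neighbouring genes were then read together, to see whether stretches of a chromosome moved as a whole. Protein-coding genes were put in the order of GENCODE 29, and the median log2 fold change was taken over each run of 51 neighbours. Over 11503 runs the medians ran from -0.79 to 0.69 around a middle of -0.01, and 9.18% of runs lay beyond 0.4 in either direction. The run with the highest median, 0.69, lay on chromosome 17 from CACNA1G to RNFT1, where 37 of 51 genes rose and 2 fell, against 31.0% and 31.3% of the 12653 protein-coding genes of nuclear chromosomes. Set against the naive mean, the median gene of that run stood at 0.66, 0.65 and 0.67 in the 3 resistant libraries and at -0.01, -0.03 and 0.04 in the naive ones (log2 CPM difference), so the libraries of a state lay close to each other. Runs on chromosome 9 from GALNT12 to CDC26 and from AKNA to LMX1B stood at 0.66 and 0.61, with 36 genes higher in each and 1 and 4 lower. On chromosome 3, from EIF4G1 to WDR53, the median was 0.64 (37 higher, 2 lower), and on chromosome 19, from MKNK2 to ANKRD24, it was 0.61 (41 higher, 4 lower). Chromosome 9 as a whole had 316 genes higher and 61 lower of 506 and a median of 0.40. Genes described above that rose and lie on that chromosome include LCN2, CDKN2A, CDKN2B, SLC31A1, LRRC8A, ABCA1, KLF4, TNC and C5. SMARCA2 and SEMA4D, which fell, lie there too. How far these genes follow their neighbours was not tested.

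The lowest runs lay on chromosomes 12 and 14. On chromosome 12, from OAS3 to SPPL3, the median was -0.79, with 1 gene higher and 42 lower of 51, and the next run, CAMKK2 to AACS, stood at -0.53 (3 higher, 35 lower). On chromosome 14, from EVL to TMEM121, the median was -0.76, again with 1 higher and 42 lower. Chromosome 20, from ID1 to NFS1, and chromosome 7, from KDM7A to CDK5, stood at -0.52 and -0.47. Chromosome 20 as a whole had 57 genes higher and 173 lower of 345 (median -0.24). As neighbours are not replicates, these medians carry no p.

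**Figure D5:**
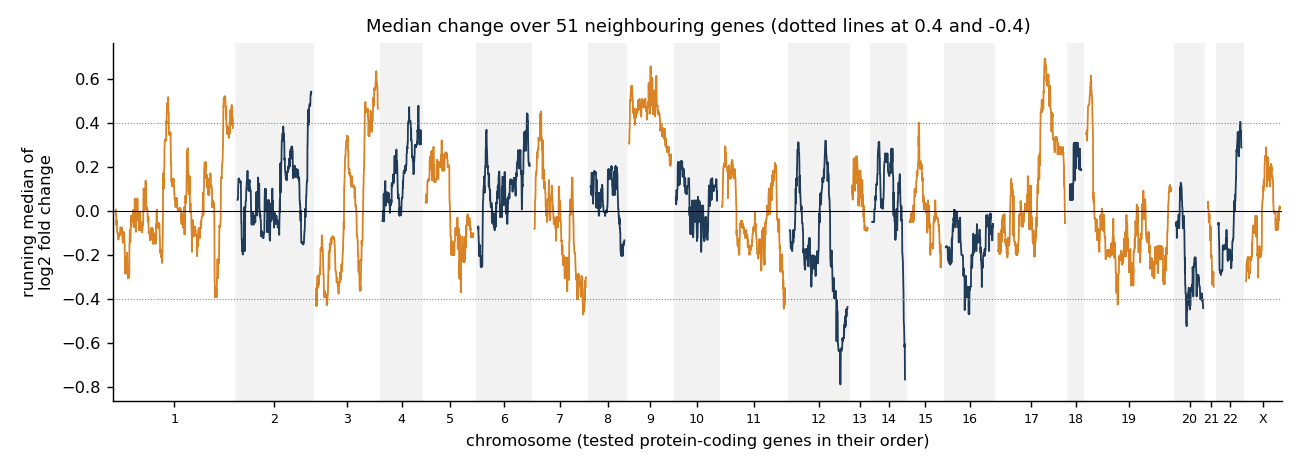
The running median of the log2 fold change (Pt-resistant minus naive) over 51 neighbouring protein-coding genes is drawn along the order of genes on each chromosome, with chromosomes set end to end in alternating shades. Peaks reach 0.69 on chromosome 17 and 0.66 on chromosome 9, and troughs -0.79 on chromosome 12 and -0.76 on chromosome 14.

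Promoters of the genes that changed were searched for short motifs of factors that fit the groups above. RefSeq windows (GRCh38.p14, 250 bases before to 50 after a gene's start) matched 10980 of the tested genes, in 15978 windows, since a gene can have several. The motifs were read on both strands, and the first was TGACNNNGC, the core of the antioxidant response element. The second, TGANTCA, takes in the AP-1 site, TGACTCA or TGAGTCA. It also takes in TGAATCA and TGATTCA, so its shares are not of AP-1 sites alone. The others were CACCTG, an E-box read by ZEB and SNAI factors, and GAAA blocks with 2 bases between them, of interferon response elements. The first and the second can share bases, and in 37 windows of 208 with both they began at the same base. The antioxidant core was in 14.4% of the windows of genes higher by at least 2-fold and in 13.1% of those lower by as much, against 14.7% of all windows. The letters TGANTCA were in 8.98% of the windows of genes higher by at least 2-fold, 4.95% of those lower by at least 2-fold and 5.32% of all. The E-box was in 17.0%, 25.1% and 19% in that order, and the interferon motif in 4.14%, 2.69% and 2.83%. A match describes the letters and not a bound site, and windows without a match can have sites elsewhere.

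The stretches below show these letters in promoters of abundant genes of each kind, picked as examples, after their values were seen, from the 4 with the highest level among changed genes with a match upstream, with the match in capitals and each stretch read 5′ to 3′ along the gene's strand. The antioxidant core stands in TXNRD1 and PPP1R15A, and the letters TGANTCA in UPP1, CXCL8 and LCN2. The LCN2 match, TGAATCA, is not the AP-1 site given above. The interferon motif stands in IFIT1, and the E-box in the falling genes LCP1, IGFBP2 and MYBL2.
TXNRD1 (chr12:104215645-104215723, plus strand, GRCh38.p14): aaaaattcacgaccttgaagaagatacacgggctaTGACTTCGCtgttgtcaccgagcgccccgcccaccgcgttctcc
PPP1R15A (chr19:48872207-48872285, plus strand, GRCh38.p14): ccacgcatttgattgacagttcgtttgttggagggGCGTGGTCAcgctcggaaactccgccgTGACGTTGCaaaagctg
UPP1 (chr7:48088562-48088638, plus strand, GRCh38.p14): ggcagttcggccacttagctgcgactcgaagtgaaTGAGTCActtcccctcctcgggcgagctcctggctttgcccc
CXCL8 (chr4:73740397-73740473, plus strand, GRCh38.p14): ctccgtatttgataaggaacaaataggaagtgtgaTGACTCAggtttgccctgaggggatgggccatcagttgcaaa
LCN2 (chr9:128149366-128149442, plus strand, GRCh38.p14): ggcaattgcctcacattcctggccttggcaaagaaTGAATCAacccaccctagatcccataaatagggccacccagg
IFIT1 (chr10:89392472-89392551, plus strand, GRCh38.p14): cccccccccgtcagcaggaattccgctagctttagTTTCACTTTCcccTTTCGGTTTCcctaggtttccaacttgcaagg
LCP1 (chr13:46182284-46182359, minus strand, GRCh38.p14): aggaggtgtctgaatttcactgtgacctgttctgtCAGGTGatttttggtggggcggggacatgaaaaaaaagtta
IGFBP2 (chr2:216632585-216632660, plus strand, GRCh38.p14): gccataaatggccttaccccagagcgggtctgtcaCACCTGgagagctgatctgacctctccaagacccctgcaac
MYBL2 (chr20:43666932-43667007, plus strand, GRCh38.p14): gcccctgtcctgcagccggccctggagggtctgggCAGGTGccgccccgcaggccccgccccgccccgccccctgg
TXNRD1, CXCL8 and LCN2 are among the genes described above that rose, at 1.47, 2.63 and 1.40 on the log2 scale. UPP1, a uridine phosphorylase, rose from 152 to 666 CPM, PPP1R15A, which restores translation after stress, by 1.11 and IFIT1, an interferon-induced RNA binder, by 1.87. IGFBP2, LCP1, which encodes an actin-bundling plastin, and MYBL2 fell, with log2 fold changes of -3.94, -2.98 and -1.23.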

How the data were processed

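RNA was read in 9 libraries of OVCAR4 cells, 3 per group, seeded in wells in triplicate. According to the study's methods, libraries were made with a directional kit and sequenced on an Illumina instrument, reads were checked with FastQC and aligned and counted per gene by STAR, and groups were compared with DESeq2. The build, the annotation and the strand column are not given in these sources. The authors deposited raw gene counts in whole numbers. Such counting keeps reads that map once and touch a single gene, so paralogs and overlapping genes can be undercounted. No other column of samples was present.

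The main test was edgeR (4.0.16, R 4.3.3). Low genes were removed with filterByExpr at a minimum count of 10, TMM scaled the libraries, and a quasi-likelihood model of the 3 groups, with no covariate, gave the contrast of Pt-resistant minus naive, adjusted by Benjamini-Hochberg over 14630 genes at a threshold of 0.05. The biological coefficient of variation was 7.66%. Within a state, libraries correlated at 0.991 to 0.993 (log2 CPM, across genes) and differed by more than counting noise. The fit was tested on simulated data in which few genes changed. Since 59.1% of genes were called here, that test cannot show how the scaling or the error rate held in this comparison. Totals of 14320929 to 19114811 counts set the precision, and counting intervals (95%, exact) cover counting error only. A change over a gene at 3 counts or fewer in a group is given as a ratio with its interval.

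The 45 gene lists, of 1296 members, 1064 of them tested, and the rule for named genes were chosen with earlier results of these data known. The rule took, among genes past the threshold with a mean of at least 5 CPM in the higher state and no overlap, the 15 with the largest fold and the 12 with the largest difference in CPM (at least 1.5-fold) in each direction, and members of the lists. Some genes that the rule takes, and 1 list, are not reported here. Symbols came from a table of gene names by stable Ensembl ID, the order of genes from GENCODE 29 and promoter windows from RefSeq (GRCh38.p14). Alternatives were other filters on low counts, RLE scaling (DESeq2 size factors), library size alone, DESeq2, limma-voom, a fit on the 6 libraries compared, the replicate number as a block, a 2-fold minimum and each library left out in turn.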

Additional observations from a re-analysis of the deposited data

How the results depend on the processing

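The counts of genes higher, lower and changed by at least 2-fold stayed within 1.5 times of those reported under every alternative run but the test against a 2-fold minimum, which called 451 genes higher and 726 lower. Leaving out each library in turn gave 3954 to 4211 genes higher, 3934 to 4275 lower, 965 to 1024 higher and 1311 to 1445 lower by at least 2-fold, 2 to 4 switched on and 1 to 3 switched off. With 0.2 CPM as the limit of an off state, 5 genes were on and 5 off. Fitted on the 6 libraries compared alone, 4043 genes were higher and 4273 lower, 871 higher and 1290 lower by at least 2-fold. The replicate numbers did not pair the libraries (correlations of deviations between same-numbered libraries of 0.02, -0.08 and 0.09), and with the number as a block 4389 genes were higher, 4299 lower, 983 higher and 1328 lower by at least 2-fold. Of 265 genes given with a fold or test, 262 kept direction and side of the threshold under every alternative run for single genes, which leaves out the 2-fold minimum. EGFR passed under 4, SOX17 passed under 3 and HBEGF did not pass with DESeq2, at 0.71. No direction reversed. Among runs of neighbours, those that moved beyond the spread between libraries kept their sign. With 25 genes they stood at 0.66 (CACNA1G), 0.67 (EIF4G1), -0.86 (OAS3), -0.92 (EVL), -0.33 (ID1) and -0.40 (KDM7A), and with the widest window at 0.50 (CACNA1G), 0.48 (GALNT12), 0.39 (MKNK2), 0.45 (AKNA), -0.60 (OAS3), -0.28 (ID1) and -0.35 (KDM7A). With library size alone AKNA stood at 0.59, OAS3 at -0.81 and KDM7A at -0.50. For 3 runs near chromosome ends the widest window could not be had. With the first window of each gene, an alternative chosen after seeing the data, 15.4% of all promoters held the antioxidant core and 4.57% the letters TGANTCA. For genes higher and lower by at least 2-fold, the shares were then 15.9% and 12.3% for the antioxidant core. For TGANTCA they were 8.17% and 4.76%. The causes of these shifts were not tested. Genes below the count filter were not tested at these depths, and a change that did not pass at a low level cannot be read as absent.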

Other observations

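Further gene groups changed as follows. Of 20 cytosolic tRNA synthetase genes, 10 rose and 3 fell, none by 2-fold, with SARS1 at 0.82 and QARS1 at -0.87 on the log2 scale. Among 24 amino acid transporters, 9 rose and 7 fell. SLC7A8, an exchanger of neutral amino acids, fell 14-fold to 0.307 CPM, and SLC1A4, which carries serine and alanine, rose 2.51-fold to 50.7 CPM. Of 26 heat shock genes, 7 rose and 5 fell. CRYAB, the small heat shock protein alpha B crystallin, stood at 173, 122 and 119 CPM in naive and 15.4, 16.1 and 11.5 CPM in Pt-resistant libraries, and DNAJB4, a partner of HSP70, at 34.2, 42.8 and 43.5 CPM in naive and 126, 162 and 142 CPM in Pt-resistant libraries. Neither overlapped, the fall of CRYAB being 9.65-fold and the rise of DNAJB4 3.57-fold (edgeR adjusted p of 1.02e-15 and 3.65e-13). Of 35 glycolysis and hypoxia genes, 11 rose and 9 fell, with HIF1A from 492 to 761 CPM, the carbonic anhydrase gene CA12 up 2.13-fold and the aldolase gene ALDOC down 2.43-fold.

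Among S100 genes, 2 of 13 rose and 6 fell. S100A4, often read as a mesenchymal gene, stood at 99.8, 65.3 and 88.3 CPM in naive and 17.9, 14.1 and 13.2 CPM in Pt-resistant libraries, lower in all resistant libraries (5.63-fold), while S100A6, its neighbour in the same cluster, rose from 179.7 to 337 CPM. Annexins rose in 4 of 9 and fell in 1. Of 27 long noncoding RNAs, 13 rose and 2 fell, and 0 fell without naive replicate 3 and 1 without Pt-resistant replicate 1. HOTAIRM1, from the end of the HOXA cluster, rose from 1.88 to 5.85 CPM, and its strand is uncertain as for HAGLR. Genes whose symbol starts with ZNF, mostly zinc finger factors, had 127 higher and 120 lower of 432, against 29.8% and 29.4% of all genes. By at least 2-fold, 10 were higher and 41 lower, against 6.73% and 9.13% of all genes. The share lower was thus near that of all genes, and the share higher by 2-fold was below it. Among 81 genes of ribosomal proteins, 19 were higher and 17 lower, with 0 beyond 2-fold either way. Of 13 mitochondrially encoded mRNAs, 10 fell and 1 rose, and the rise was lost without naive replicate 2, naive replicate 3 or Pt-resistant replicate 1 and joined by another without naive replicate 1. The share of mitochondrial rRNA went from 3.06% ± 0.45 to 4.28% ± 0.39 (SD, n = 3 each, exact two-sided permutation test p = 0.1, the smallest that 3 against 3 allows).

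Few members of germ line and protocadherin families were read. Of 30 cancer-testis genes 7 could be tested. MAGEC2 fell from 5.76 to 1.34 CPM and MAGEA3 rose from 0.573 to 2.14 CPM. Of 24 protocadherins 11 could be tested, 1 of which rose and 4 fell. The clustered genes PCDHB13 and PCDHB2 fell 5.66-fold and 4.91-fold. These families hold near copies, so their counts are uncertain.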
